A study of Homo sapiens with 4 samples.

Results

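The genes described here make, carry and edit heparan sulfate. They are the 38 genes whose symbols name the glypicans, syndecans, perlecan (HSPG2) and agrin (AGRN), the enzymes that start, extend, epimerise and sulfate the chain, the extracellular sulfatases SULF1 and SULF2, and heparanase (HPSE), and they were picked by symbol out of the 60623 genes in the count tables. They were measured by RNA-seq of polyadenylated RNA in BICR10, a human cell line labelled as head and neck cancer. The 2 shControl libraries came from cells given a control hairpin by lentivirus, and the 2 shYEATS2 libraries from cells given a hairpin against YEATS2, the gene of a chromatin protein that reads acyl marks on histone H3. The study selected both kinds of cells with puromycin, so this agent is shared by all 4 libraries. More than 1 YEATS2 hairpin is listed in its methods, and no source used here says which each shYEATS2 library carried. The study describes its experiments in general as done in independent biological replicates, without a statement on these RNA-seq libraries alone. The p-values below set a difference against the spread between these libraries, which may be technical in part. The edgeR test shares this spread between genes, so the p-value of a gene rests largely on the spread of other genes.

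Heparan sulfate is a sugar chain built on a protein core. Xylosyltransferases put the first sugar on the core, EXT-family enzymes lengthen the chain, NDST enzymes replace N-acetyl by N-sulfate groups, GLCE epimerises glucuronic to iduronic acid, and sulfotransferases add sulfate at the 2-O, 6-O and 3-O positions. At the cell surface the SULF enzymes take 6-O-sulfate off again and heparanase cuts the chain. The pattern of sulfate sets which growth factors, chemokines and matrix proteins the chain binds, and in epithelial tumours these chains are known as co-receptors for FGF, Wnt and other signals. All values given are of mRNA, so neither chains nor their sulfation were measured.

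The counts on genes came to 47297970 and 39824898 in shControl replicates 1 and 2 and to 24072396 and 11334133 in shYEATS2 replicates 1 and 2, so depth was lower in both knockdown libraries and cannot be told apart from the condition for genes near 0. YEATS2 itself was at 66.1 and 66.6 CPM (counts scaled to a common library size by TMM) in shControl and at 29.2 and 29.1 CPM in shYEATS2 (log2 fold change −1.19, SE 0.08, edgeR adjusted p = 3.4e-21). Of 10 epithelial markers, 5 were at 1 CPM or more in every library, among them KRT8, KRT18 and SFN at over 70 CPM and KRT5 at 14.9 to 16.4 CPM in shControl and 1.03 to 1.36 CPM in shYEATS2. KRT17 and TP63, which like KRT5 and KRT14 mark squamous and basal cells, were under 1 CPM in all 4 libraries. KRT14 was at 1.23 and 1.19 CPM in shControl and at 0.276 and 0.170 CPM in shYEATS2. It was called lower and passed the filter on low counts through shControl alone. The summed level of the epithelial list was 538 to 544 CPM in shControl and 330 to 358 CPM in shYEATS2 (5 lower, 1 higher). KRT8, which was lower (log2 fold change −1.16), was the largest part of this sum in shControl, at 268 and 263 CPM. The epithelial marker called higher was CDH1 (E-cadherin), which adds little to the sum. It was at 0.352 and 0.317 CPM in shControl and at 2.84 and 2.12 CPM in shYEATS2 (log2 fold change 2.91, SE 0.37, edgeR adjusted p = 4.6e-10). Of 10 fibroblast markers, 8 were at 1 CPM or more in every library and 8 were lower, with THY1 near 0 throughout. Their summed level was 7454 to 7539 CPM in shControl and 2286 to 2421 CPM in shYEATS2. COL1A1 (2842 and 2744 CPM), COL1A2 (2620 and 2606 CPM) and COL3A1 (1042 and 1025 CPM) made up most of this sum in shControl. FAP was not called (log2 fold change −0.11, SE 0.12, edgeR adjusted p = 0.470). Of all tested genes, 23.6% were called lower and 22.6% higher. Of 10 endothelial markers, 7 were under 1 CPM in every library, CDH5, CLDN5 and TIE1 being at or near 0. In this list 1 was lower, 1 higher and 3 not called. TEK, the 1 called higher, had 4 and 6 counts in shControl and 9 and 7 in shYEATS2. It passed the filter on low counts through shYEATS2 alone. The endothelial list summed to 50.7 to 52.7 CPM in shControl and 31.8 to 35.5 CPM in shYEATS2, and its marker called lower was KDR, at 33.7 and 35.1 against 17.0 and 17.4 CPM. The epithelial and fibroblast sums fell in the same libraries as the genes described below, and their part in those results was not tested. In bulk RNA, fewer cells of a type and less RNA per cell cannot be told apart.

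Most of the heparan sulfate genes were expressed, and most of those tested were lower after YEATS2 knockdown. A count was found for 36 of the 38 genes, with EXTL1 and HS3ST6 at 0 in all 4 libraries, and 28 passed the filter on low counts and were tested. At an adjusted p under 0.05, 17 were lower, 6 were higher and 5 were not called. Of all 17058 genes tested, 23.6% were called lower and 22.6% higher, 46.2% in all, so the share of calls among all genes was itself large. Of the 9364 tested genes whose mean level reached 10 CPM, 32.1% were lower and 25.5% higher (57.6% in all), and of the 23 heparan sulfate genes at that level 14 were lower and 4 higher. The conditions did not overlap and shYEATS2 was the lower for 17 of the 28, against 36.3% of all tested genes, and the higher for 7, against 35.3%. A called change of at least 2-fold was found for 6 lower and 4 higher genes, against 3.70% and 5.99% of all tested genes. The median log2 fold change of the 28 was −0.39, with quartiles of −0.77 and 0.03, and that of all tested genes was −0.01. The median size of the change, without its sign, was 0.59 on the log2 scale against 0.31 for all tested genes. HS6ST2 and GPC2 passed the filter through their counts in shControl alone. With at least 10 counts required in every library they were not tested, and 15 of 26 genes were lower and 6 higher, with a median of −0.31.

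**Figure D1:**
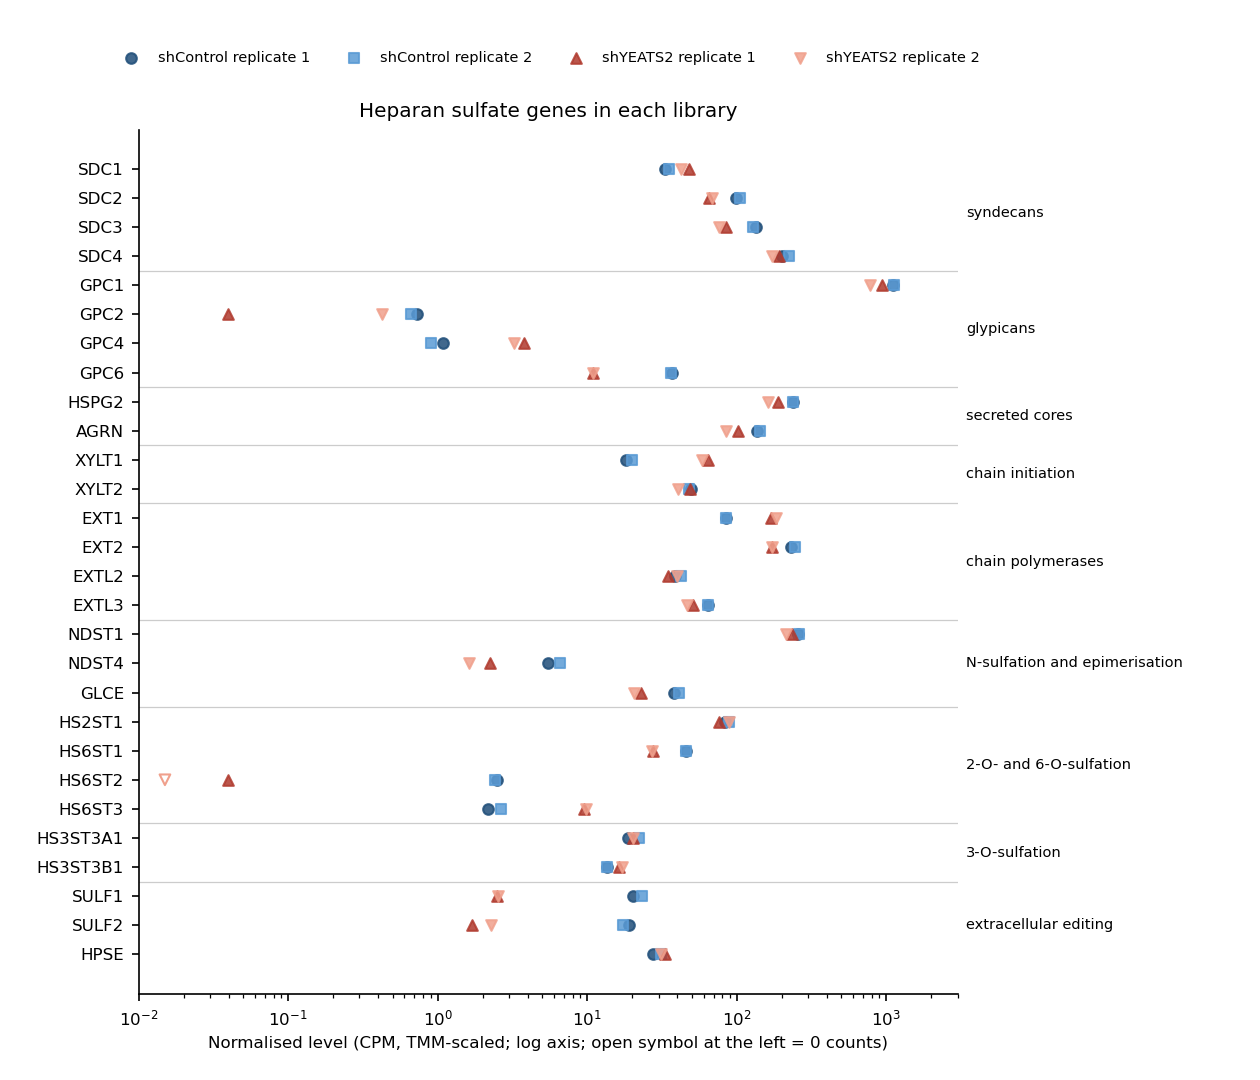
Normalised level of each of the 28 tested heparan sulfate genes in each library, in TMM-scaled CPM on a log axis, with 1 symbol for each library and genes grouped by role. GPC1 sits highest, as it does per kilobase of exon, at 776 to 1135 CPM, and the symbols of the conditions lie farthest apart for HS6ST2, SULF1 and SULF2, where the open symbol stands for 0 counts.

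**Figure D2:**
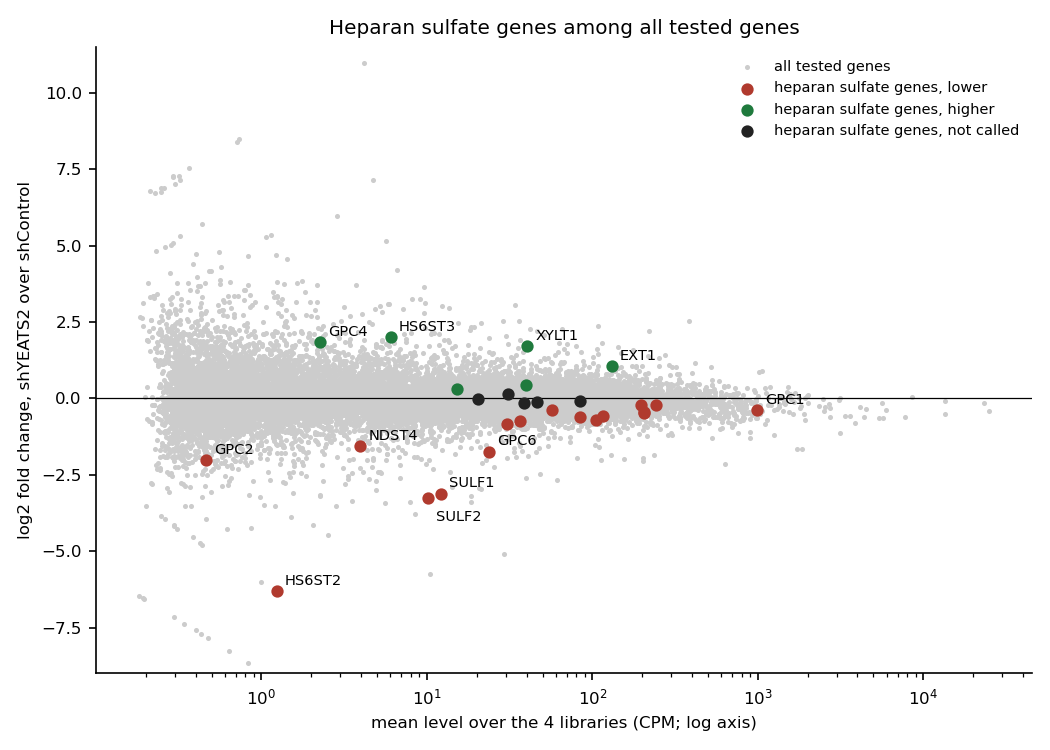
Mean level over the 4 libraries (CPM, log axis) against the log2 fold change of shYEATS2 over shControl for all 17058 tested genes in grey, with heparan sulfate genes coloured by call. SULF1 and SULF2 lie at the lower edge of the cloud at their level, and most other heparan sulfate genes lie within it. The fitted value of HS6ST2 rests on 1 count in shYEATS2.

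Transcripts of the core proteins were mostly lower. Of the 10 cores tested, 8 were lower and 2, SDC1 and GPC4, were higher, with a median log2 fold change of −0.50. Of all tested genes, 23.6% were lower and 22.6% higher. For all tested genes at a mean of 10 CPM or more, as 8 of the 10 cores were, the shares were 32.1% and 25.5%. GPC2, among the lower, passed the filter through shControl alone. Per kilobase of exon, the scale on which genes can be set side by side, the highest cores in shControl were GPC1 at 172 CPM per kb and SDC4 at 81.5 CPM per kb. SDC2 (24.9 CPM per kb), SDC3 (18.6), HSPG2 (13.2), AGRN (13.0), SDC1 (9.41) and GPC6 (5.14) followed, and HSPG2 and AGRN differed by less than the SD of AGRN. GPC1 and SDC4 kept the highest ranks of all 38 genes in shYEATS2, at 131 and 69.7 CPM per kb.

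The syndecans are the transmembrane cores, and 3 of the 4 were lower. Among all tested genes at a mean of 10 CPM or more, 32.1% were lower and 25.5% higher. SDC4, found at focal adhesions and the most abundant of them, was at 202 and 224 CPM in shControl and at 192 and 172 CPM in shYEATS2. The conditions did not overlap, and the difference was small (log2 fold change −0.22, SE 0.06, edgeR adjusted p = 0.0030). It was no longer called with library totals in place of TMM (−0.09, adjusted p = 0.284) or without shControl replicate 2 (−0.15, adjusted p = 0.184). SDC2 (99.3 and 104 against 65.0 and 68.0 CPM) had a log2 fold change of −0.62 (SE 0.07, edgeR adjusted p = 5.7e-12). SDC3, known best from neural tissue, was at 135 and 128 against 84.6 and 76.2 CPM (log2 fold change −0.70, SE 0.07, edgeR adjusted p = 3.4e-14). SDC1, the syndecan typical of epithelia and plasma cells, moved the other way. It was at 32.9 and 35.1 CPM in shControl and at 48.0 and 42.5 CPM in shYEATS2 (log2 fold change 0.43, SE 0.08, edgeR adjusted p = 8.2e-06). The share of SDC1 in the summed syndecan level per kilobase was 7.02% and 6.98% in shControl and 11.6% and 11.2% in shYEATS2, while SDC4 held 59.6% to 61.6% and 62.7% to 64.1%. Such shares are taken within a library and do not depend on how libraries are scaled.

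The glypicans are held in the membrane by a GPI anchor. GPC1 made up 96.8% and 97.0% of the summed glypican level per kilobase in shControl and 98.4% and 98.1% in shYEATS2. GPC1 itself was at 1109.6 and 1135 CPM in shControl and at 935 and 776 CPM in shYEATS2, without overlap (log2 fold change −0.39, SE 0.06, edgeR adjusted p = 3.0e-06). GPC6, which binds Wnt ligands, fell much further. It was at 37.1 and 36.2 CPM in shControl and at 11.002 and 10.9 CPM in shYEATS2, so that the libraries of each condition were within 1 CPM of each other (log2 fold change −1.74, SE 0.10, edgeR adjusted p = 3.8e-24). GPC4, also a modulator of Wnt and FGF signals, rose from a low level, at 1.08 and 0.899 CPM (49 and 34 counts) in shControl and 3.79 and 3.22 CPM (96 and 38 counts) in shYEATS2 (log2 fold change 1.83, SE 0.27, edgeR adjusted p = 3.9e-08). Among the glypicans other than GPC1, GPC6 thus went from 92.5% and 93.2% to 66.6% and 66.9% of the summed level per kilobase, and GPC4 from 3.87% and 3.33% to 32.9% and 28.3%. GPC2 had 33 and 25 counts in shControl and 1 and 5 in shYEATS2, and was called lower (log2 fold change −2.03, SE 0.66, edgeR adjusted p = 0.0079). This call rests on few counts: the ratio of shControl to shYEATS2 was 4.32 with a 95% counting interval of 1.87 to 12.2. Without shYEATS2 replicate 1 the log2 fold change was −0.72 (adjusted p = 0.479), without shControl replicate 1 it was −1.93 (adjusted p = 0.0773), and with DESeq2 it was −1.84 (adjusted p = 0.130). GPC3 had 1 count and GPC5 had 3 counts, all in shControl, and neither was tested.

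The windows before the starts of GPC6 and GPC1 are shown because these genes differ in level and in response. GPC6 lies on chr13:93226807-94408020 on the plus strand and GPC1 on chr2:240435663-240468076 on the plus strand (GRCh38, GENCODE 44). Each sequence is the RefSeq window of 250 bases that ends at the gene's start (GRCh38.p14), read 5′ to 3′ on the gene's strand, at chr13:93226557-93226806 and chr2:240435413-240435662. Capitals mark a TATA box (TATAAA) or a GC box (GGGCGG, or CCGCCC on the other strand).
GPC6: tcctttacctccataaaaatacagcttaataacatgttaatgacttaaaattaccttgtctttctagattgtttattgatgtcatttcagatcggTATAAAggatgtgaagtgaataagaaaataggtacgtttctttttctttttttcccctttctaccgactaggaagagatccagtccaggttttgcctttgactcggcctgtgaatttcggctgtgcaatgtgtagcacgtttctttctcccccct
GPC1: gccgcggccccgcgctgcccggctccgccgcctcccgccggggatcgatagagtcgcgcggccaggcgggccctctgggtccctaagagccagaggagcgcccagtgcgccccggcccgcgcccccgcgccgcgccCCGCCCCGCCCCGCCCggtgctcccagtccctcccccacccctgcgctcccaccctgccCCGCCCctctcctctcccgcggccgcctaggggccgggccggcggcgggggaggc
The GPC6 window held 1 TATA box, no GC box, 6 CpG and 37.6% G and C. The GPC1 window held 4 GC boxes, of which adjacent ones share a base, 36 CpG and 84.0% G and C.

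Perlecan and agrin, the secreted cores of basement membranes, were both lower, as were 32.1% of all tested genes at a mean of 10 CPM or more. HSPG2 was at 239.6 and 237 CPM in shControl and at 188 and 161 CPM in shYEATS2 (log2 fold change −0.44, SE 0.06, edgeR adjusted p = 3.1e-08). Of its exon bases, 11.7% lie antisense to LDLRAD2, which had 55 and 29 counts in shControl and 18 and 3 in shYEATS2. AGRN was at 137 and 142 CPM in shControl and at 103 and 84.9 CPM in shYEATS2 (log2 fold change −0.56, SE 0.07, edgeR adjusted p = 1.1e-09).

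The enzymes moved in both directions. Of the 18 tested, 9 were lower, 4 were higher and 5 were not called, with a median log2 fold change of −0.17. The shares over all tested genes were 23.6% lower and 22.6% higher, so the 22.2% of enzymes called higher was near that of all genes. For all tested genes at a mean of 10 CPM or more, as 15 of the 18 enzymes were, the shares were 32.1% and 25.5%. HS6ST2, among the lower, passed the filter through shControl alone. At the start of the chain and in its polymerisation, 1 member of each enzyme pair rose while its partner did not. XYLT1, 1 of the 2 xylosyltransferases, was at 18.1 and 19.8 CPM in shControl and at 64.4 and 58.6 CPM in shYEATS2 (log2 fold change 1.71, SE 0.08, edgeR adjusted p = 3.3e-28). XYLT2 was at 49.3 and 48.0 CPM in shControl and 48.3 and 40.3 CPM in shYEATS2, with overlap (log2 fold change −0.12, SE 0.08, edgeR adjusted p = 0.232). XYLT1 thus went from 15.3% and 16.9% to 39.7% and 41.8% of the summed xylosyltransferase level per kilobase, and XYLT2 still held the larger part. The pair summed to 10.6 and 10.6 CPM per kb in shControl and to 14.6 and 12.6 CPM per kb in shYEATS2.

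XYLT1 lies on chr16:17101769-17470960 on the minus strand. Its window is shown as that of the enzyme gene with the smallest adjusted p among those that rose, at chr16:17470961-17471210, read 5′ to 3′ on the gene's strand with the GC box in capitals.
XYLT1: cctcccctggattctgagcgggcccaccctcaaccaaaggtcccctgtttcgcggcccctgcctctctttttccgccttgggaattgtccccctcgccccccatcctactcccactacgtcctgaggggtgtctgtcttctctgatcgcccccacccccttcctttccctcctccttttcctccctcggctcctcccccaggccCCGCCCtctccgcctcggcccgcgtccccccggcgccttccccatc
It held 1 GC box, 15 CpG and 67.6% G and C.

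EXT1 and EXT2 act together as the polymerase of the chain. EXT1 was at 84.5 and 85.2 CPM in shControl and at 170.5 and 182 CPM in shYEATS2 (log2 fold change 1.05, SE 0.06, edgeR adjusted p = 4.4e-23). EXT2 was at 232 and 246 CPM in shControl and at 171 and 172 CPM in shYEATS2 (log2 fold change −0.48, SE 0.06, edgeR adjusted p = 7.0e-10). The conditions did not overlap for either gene, and the directions were opposite. The ratio of EXT1 to EXT2, per kilobase, was 0.699 and 0.666 in shControl and 1.91 and 2.04 in shYEATS2. This length counts the exons of all annotated transcripts, 10736 bases for EXT1 and 20632 for EXT2, so the height of the ratio depends on the annotation and its change between libraries does not. EXT1 rose from rank 14 to rank 4 among the 38 genes per kilobase. The pair summed to 19.1 and 19.8 CPM per kb in shControl and 24.2 and 25.3 CPM per kb in shYEATS2. The ranks, the size and direction of the change in this sum, and the height of the shares also depend on these lengths. EXTL3, which adds the first N-acetylglucosamine of the chain, was lower, at 64.7 and 64.6 against 51.2 and 46.7 CPM (log2 fold change −0.39, SE 0.07, edgeR adjusted p = 7.2e-06). EXTL2, a related transferase that can end the linker, was at 38.6 and 42.3 against 34.5 and 39.9 CPM and was not called (log2 fold change −0.14, SE 0.08, edgeR adjusted p = 0.176).

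**Figure D3:**
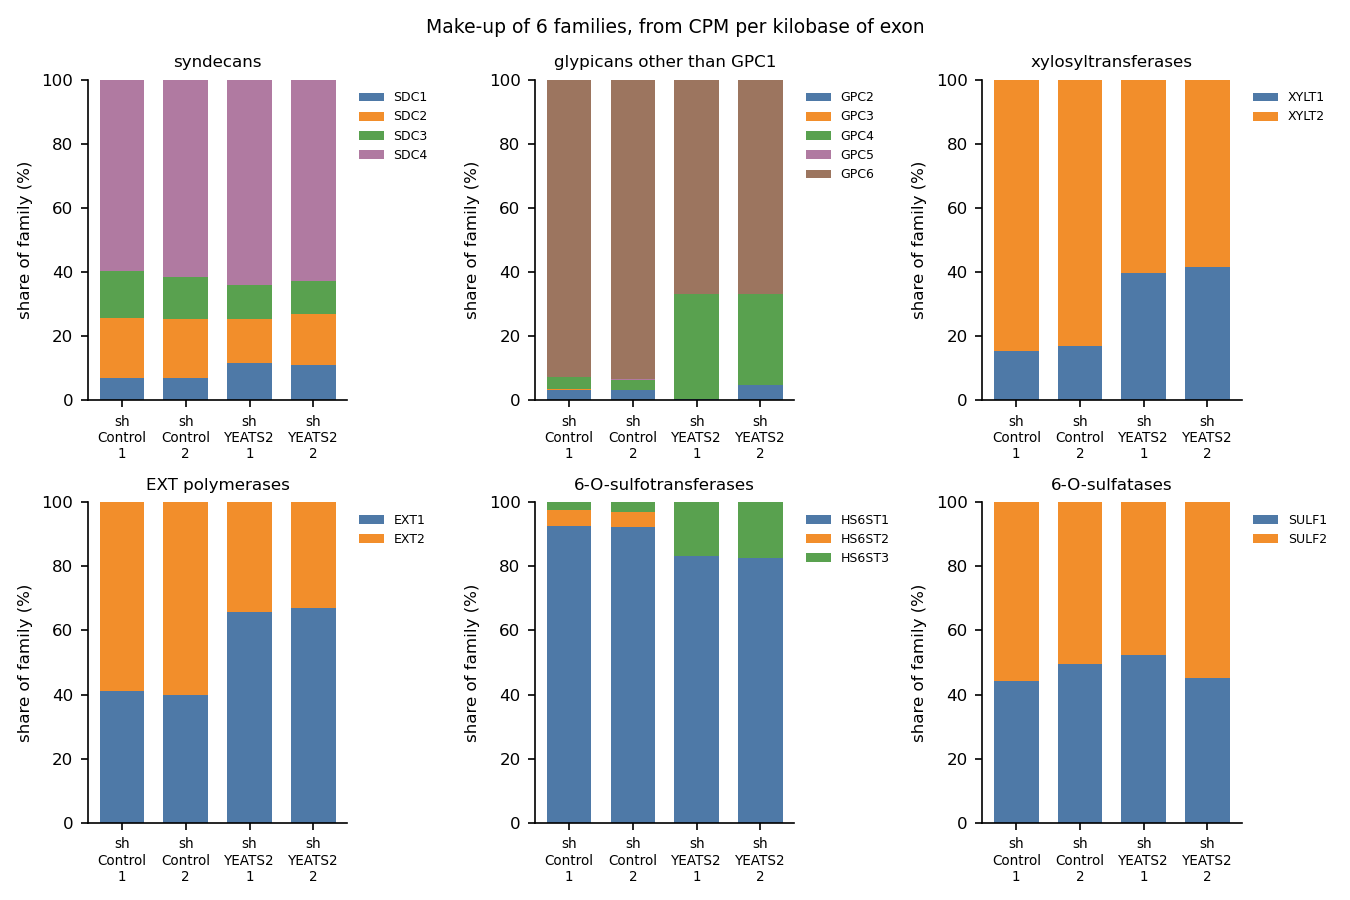
Share of each gene in the summed level of its family in each library, in % of CPM per kilobase of exon, for 6 families. The height of a share depends on the annotated exon lengths. The EXT1 share was 41.2% and 40.0% in shControl and 65.6% and 67.1% in shYEATS2, whereas the SULF1 share of the 6-O-sulfatases overlapped between conditions, at 44.3% and 49.7% against 52.2% and 45.3%.

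All 3 tested genes of N-sulfation and epimerisation were lower. So were 23.6% of all tested genes, and 32.1% of those at a mean of 10 CPM or more. NDST1, an N-deacetylase and N-sulfotransferase, was at 257 and 261 CPM in shControl and at 234 and 212 CPM in shYEATS2. Its difference was small (log2 fold change −0.21, SE 0.06, edgeR adjusted p = 0.0026) and was not called with library totals in place of TMM (−0.08, adjusted p = 0.287). NDST4 was at 5.44 and 6.56 CPM in shControl and at 2.25 and 1.61 CPM in shYEATS2 (log2 fold change −1.56, SE 0.20, edgeR adjusted p = 1.5e-09). GLCE, the only C5-epimerase, was at 38.1 and 41.2 CPM in shControl and at 23.0 and 20.4 CPM in shYEATS2 (log2 fold change −0.85, SE 0.09, edgeR adjusted p = 7.8e-13). NDST3 had 4 and 4 counts in shControl and 0 in shYEATS2, below what could be tested. NDST2 had 6 and 0 against 0 and 2 counts, and 82.9% of its exon bases lie on the same strand within exons of another annotated gene, ENSG00000272916. Reads there belong to both genes and HTSeq leaves such reads uncounted, so its counts near 0 say nothing of its level and no share of the NDST family is given.

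The 2-O-sulfotransferase did not change detectably, and the 3 6-O-sulfotransferases each went their own way. HS2ST1 was at 83.6 and 88.5 CPM in shControl and at 76.03 and 88.5 CPM in shYEATS2, with overlap (log2 fold change −0.08, SE 0.07, edgeR adjusted p = 0.391). HS6ST1, the most abundant 6-O-sulfotransferase, was at 45.7 and 45.9 CPM in shControl and at 27.6 and 27.2 CPM in shYEATS2 (log2 fold change −0.74, SE 0.08, edgeR adjusted p = 8.7e-12). HS6ST2 was at 2.49 and 2.41 CPM in shControl, from 113 and 91 counts, and had 1 and 0 counts in shYEATS2. The summed counts gave a ratio of shControl to shYEATS2 of 91.1 with a 95% counting interval of 16.2 to 3614, and edgeR called it lower (adjusted p = 2.5e-13). Its fitted log2 fold change is not given because it depends on the prior count. A group of shYEATS2 size could hide a level of up to 0.0807 CPM behind 0 counts. HS6ST3 rose, from 2.16 and 2.67 CPM (98 and 101 counts) to 9.54 and 9.75 CPM (242 and 115 counts), with a log2 fold change of 2.002 (SE 0.17, edgeR adjusted p = 3.3e-16). HS6ST2 thus went from 4.90% and 4.69% of the summed 6-O-sulfotransferase level per kilobase to 0.115% and 0%, HS6ST3 from 2.55% and 3.13% to 16.8% and 17.3%, and HS6ST1 from 92.6% and 92.2% to 83.1% and 82.7%. The sum of the family was 9.92 and 10.01 CPM per kb in shControl and 6.67 and 6.61 CPM per kb in shYEATS2.

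The windows of HS6ST2 and HS6ST3 are shown because these related enzymes, both low in shControl, moved in opposite directions. HS6ST2 lies on chrX:132626015-132961395 on the minus strand. Of its RefSeq window of 250 bases, the 225 that lie before the GENCODE start are shown, at chrX:132961396-132961620. HS6ST3 lies on chr13:96090107-96839562 on the plus strand, with its window at chr13:96089857-96090106. Both are read 5′ to 3′ on the gene's strand, and neither held a GC box or a TATA box to set in capitals.
HS6ST2: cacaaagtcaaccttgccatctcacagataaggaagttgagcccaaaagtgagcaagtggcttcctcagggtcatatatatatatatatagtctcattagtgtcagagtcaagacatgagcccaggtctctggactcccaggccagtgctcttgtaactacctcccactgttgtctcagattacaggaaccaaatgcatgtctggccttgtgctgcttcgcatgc
HS6ST3: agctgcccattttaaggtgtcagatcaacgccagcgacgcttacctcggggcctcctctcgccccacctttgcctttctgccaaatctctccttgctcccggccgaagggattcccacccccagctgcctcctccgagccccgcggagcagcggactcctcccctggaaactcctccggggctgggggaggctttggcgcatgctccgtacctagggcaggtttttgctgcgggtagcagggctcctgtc
The 225 bases shown for HS6ST2 held 1 CpG and 47.1% G and C, and the window of HS6ST3 held 15 CpG and 64.4%.

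The 3-O-sulfotransferases make the rare sites that antithrombin and some other proteins need. HS3ST3A1 was at 18.7 and 22.2 CPM in shControl and at 20.3 and 20.3 CPM in shYEATS2 (log2 fold change −0.01, SE 0.10, edgeR adjusted p = 0.970). HS3ST3B1 was at 13.5 and 13.6 CPM in shControl and at 16.3 and 17.2 CPM in shYEATS2 (log2 fold change 0.29, SE 0.11, edgeR adjusted p = 0.0187). The sulfotransferase parts of this pair are nearly identical, so reads may be split or lost between them, and the values of both are uncertain. The HS3ST3B1 call was lost with DESeq2 (adjusted p = 0.0982) and with no filter (adjusted p = 0.101), and without shControl replicate 1 (adjusted p = 0.136), shControl replicate 2 (0.119) or shYEATS2 replicate 2 (0.0508). The other 5 were at or near 0. HS3ST4 had 3 and 1 counts in shControl and 7 and 7 in shYEATS2, a ratio of shYEATS2 to shControl of 7.84 with a 95% counting interval of 2.46 to 32.7 and no test. HS3ST2 had 9 and 10 counts against 1 and 2, a ratio of shYEATS2 to shControl of 0.354 with an interval of 0.0670 to 1.20. HS3ST1 had 4 counts and HS3ST5 had 2, all in shControl replicate 1, and HS3ST6 had none.

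The extracellular sulfatases had the largest falls among the members with at least 10 counts in every library. SULF1 was at 20.3 and 23.2 CPM in shControl and at 2.48 and 2.54 CPM in shYEATS2, from 923, 876, 63 and 30 counts. By its fitted log2 fold change this is 11.6% of the control level (−3.11, SE 0.15, edgeR adjusted p = 1.1e-28). SULF2, which acts on the same 6-O-sulfate groups, was at 19.1 and 17.5 CPM in shControl and at 1.70 and 2.29 CPM in shYEATS2, from 866, 661, 43 and 27 counts. By its fitted log2 fold change this is 10.4% of the control level (−3.27, SE 0.16, edgeR adjusted p = 1.0e-27). For both genes every shYEATS2 library lay far below every shControl library, and among 17058 tested genes SULF2 had the 40th and SULF1 the 47th lowest log2 fold change. Their log2 fold changes stayed between −3.43 and −2.92 under every scaling, filter, test and left-out library that was tried. They fell in like proportion, since the ratio of SULF1 to SULF2 per kilobase was 0.794 and 0.987 in shControl and 1.09 and 0.828 in shYEATS2. Together they summed to 4.90 and 4.97 CPM per kb in shControl and to 0.508 and 0.599 CPM per kb in shYEATS2, against the fall of the 6-O-sulfotransferases from 9.92 and 10.01 to 6.67 and 6.61 CPM per kb given above. Of the SULF2 exon bases, 3.54% lie antisense to NCOA3, which had 6778, 5725, 5208 and 2596 counts, and the strand setting of the counting is not given in the sources used here. Heparanase, which cuts the chain, was at 27.5 and 31.2 CPM in shControl and at 33.2 and 31.3 CPM in shYEATS2, and was not called (log2 fold change 0.14, SE 0.09, edgeR adjusted p = 0.170).

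SULF2 lies on chr20:47656197-47786616 on the minus strand. Its window is shown as that of the sulfatase with the larger fall, at chr20:47786628-47786877, which is the most upstream of 4 RefSeq entries, read 5′ to 3′ on the gene's strand.
SULF2: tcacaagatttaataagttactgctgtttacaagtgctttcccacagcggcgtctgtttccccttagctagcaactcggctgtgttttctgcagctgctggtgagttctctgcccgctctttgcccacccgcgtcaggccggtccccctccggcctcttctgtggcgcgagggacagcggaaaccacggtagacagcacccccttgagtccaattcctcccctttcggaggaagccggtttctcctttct
It held no GC box and no TATA box, with 14 CpG and 56.8% G and C.

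Across the members, RefSeq held windows for 32 of the 38 genes (not for SDC2, GPC3, AGRN, EXT1, EXTL3 and SULF1). A GC box stood in at least 1 window of 27 of the 32, or 84.4%, against 46.2% of 27305 genes in the table. It was found in 4 of the 8 members called at 2-fold or more, in 10 of the 10 called at less, in 5 of the 5 tested and not called and in 8 of the 9 not tested. The E-box CACCTG was found in 6 of the 32 (18.8%, against 20.6% of all genes), the AP-1 site TGANTCA in 2 (6.25%, against 8.06%) and the TATA box TATAAA in 5 (15.6%, against 13.0%), each searched on both strands and by letters alone. These are counts of letters in a window and not of bound sites. The 27305 genes include genes not tested here, and no share was taken over the tested genes alone. Whether a GC box goes with the change of a gene was not tested.

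**Figure D4:**
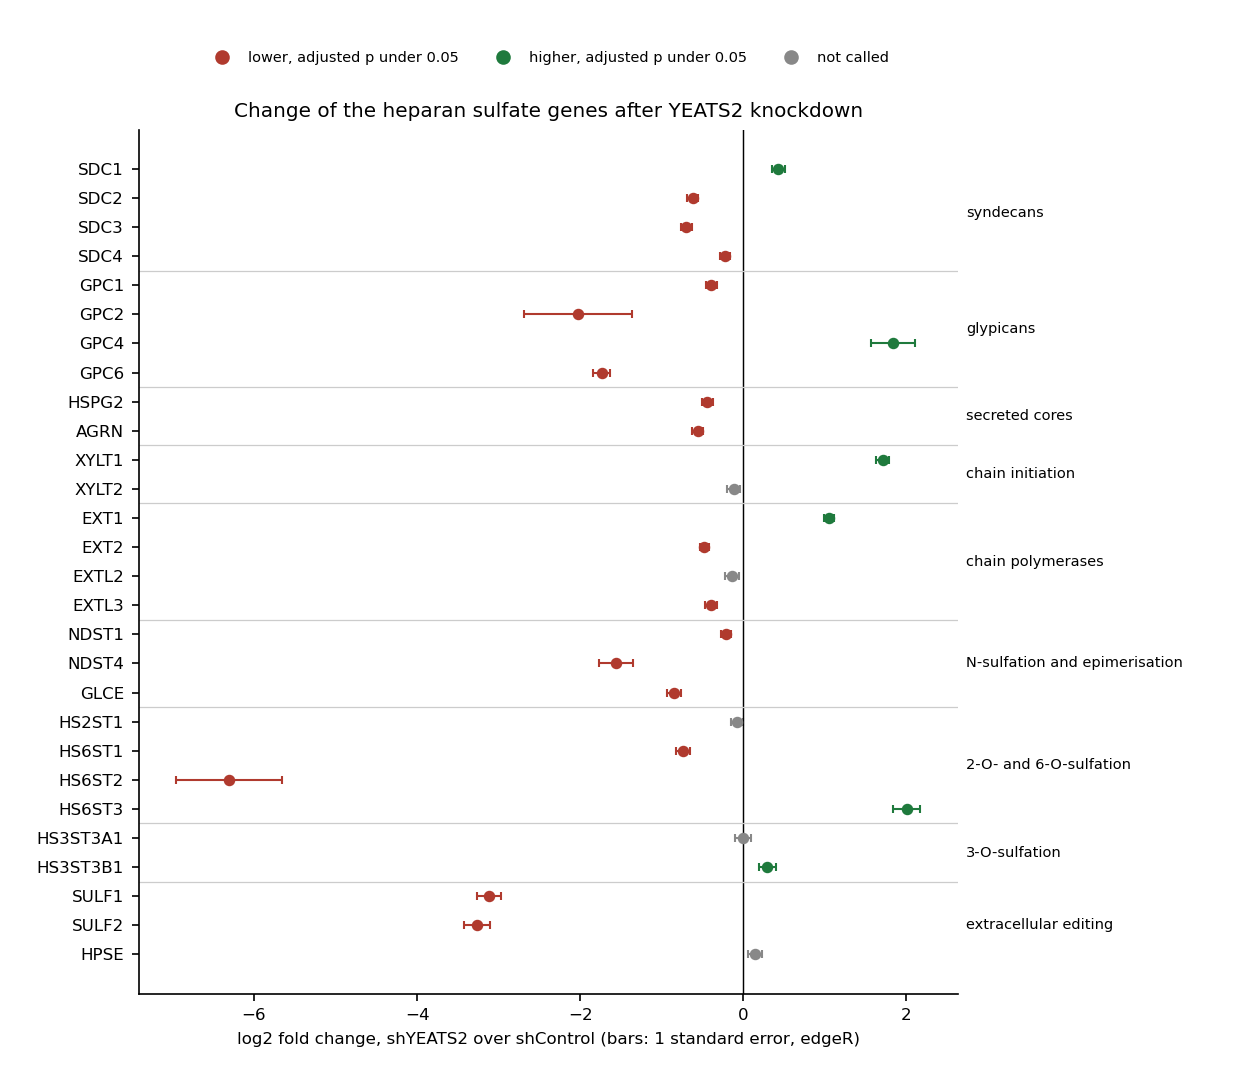
log2 fold change of shYEATS2 over shControl for the 28 tested heparan sulfate genes, with bars of 1 standard error from edgeR and colours for the call at an adjusted p under 0.05. Both sulfatases lie near −3, the 4 genes that rose at least 2-fold (XYLT1, EXT1, HS6ST3 and GPC4) lie between 1.05 and 2.002, and the value of HS6ST2 depends on the prior count.

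Of 47 further genes of the pathway, in 4 lists, 45 were tested: 18 were lower, 10 were higher and 17 were not called, with a median log2 fold change of −0.18. That is 40.0% lower and 22.2% higher, against 23.6% and 22.6% of all tested genes. The share higher was thus near that of all tested genes, and the share lower was above it. Of the 45, 36 were at a mean of 10 CPM or more, where 32.1% of all tested genes were lower and 25.5% higher. The counts of the single lists below stand beside the same backgrounds. The 17 genes that supply the linker and precursors (6 lower, 4 higher, median −0.12) lay between −0.38 for BPNT2, a Golgi phosphatase, and 0.70 for SLC35D2, a nucleotide sugar transporter, and none changed 2-fold. SLC35D2 was at 2.66 and 2.46 CPM in shControl and 3.67 and 4.92 CPM in shYEATS2 (log2 fold change 0.70, SE 0.21, edgeR adjusted p = 0.0051). The enzymes that break the chain down in the lysosome gave 5 lower and 0 higher of 9 tested (median −0.26). GUSB, the lysosomal β-glucuronidase, changed most of these, at 37.9 and 40.1 CPM in shControl and 22.2 and 24.7 CPM in shYEATS2 (log2 fold change −0.75, SE 0.09, edgeR adjusted p = 4.3e-11).

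Genes that shed or process the cores or bind syndecan tails gave 5 lower and 2 higher of 11 tested (median −0.37), and 3 of the falls were at least 2-fold. MMP7, a matrix metalloproteinase that can shed SDC1, was at 22.5 and 24.3 CPM in shControl and at 4.81 and 3.64 CPM in shYEATS2 (log2 fold change −2.41, SE 0.13, edgeR adjusted p = 1.4e-25). NOTUM, an extracellular enzyme that inactivates Wnt and was first described as a cutter of glypican anchors, was at 5.75 and 5.18 against 1.46 and 1.19 CPM (log2 fold change −2.001, SE 0.23, edgeR adjusted p = 1.6e-11). MMP14, a membrane-bound metalloproteinase, was at 399 and 394 against 187 and 159 CPM (log2 fold change −1.19, SE 0.06, edgeR adjusted p = 1.5e-23). The genes of this list that rose were ADAM17, also a sheddase of syndecans, and SDCBP, the syndecan adaptor syntenin. ADAM17 was at 94.8 and 91.3 CPM in shControl and at 115 and 118 CPM in shYEATS2 (log2 fold change 0.33, SE 0.06, edgeR adjusted p = 1.9e-05). SDCBP rose slightly (log2 fold change 0.23, SE 0.06, edgeR adjusted p = 0.00073).

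Of 8 other cores that can carry heparan sulfate, 2 were lower and 4 higher (median 0.07). SPOCK1, a testican, rose from 5.86 and 4.68 to 11.6 and 12.1 CPM (log2 fold change 1.16, SE 0.14, edgeR adjusted p = 1.2e-10). Its relative SPOCK3 fell from 6.56 and 6.90 to 2.997 and 1.44 CPM (log2 fold change −1.46, SE 0.20, edgeR adjusted p = 1.0e-08). Here too, related genes moved in opposite directions.

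Chondroitin and dermatan sulfate share the linker with heparan sulfate and are then made by their own enzymes. Of 16 such genes, 15 were tested: 7 were lower, 6 were higher and 2 were not called. That is 46.7% lower and 40.0% higher, against 23.6% and 22.6% of all tested genes. Of the 15, 14 were at a mean of 10 CPM or more, where 32.1% of all tested genes were lower and 25.5% higher. The median log2 fold change was −0.11 and the median size of change 0.57, against −0.39 and 0.59 for the heparan sulfate genes. The change of at least 2-fold in this list was that of CHST11, a chondroitin 4-O-sulfotransferase, at 10.2 and 10.7 CPM in shControl and 24.6 and 24.2 CPM in shYEATS2 (log2 fold change 1.23, SE 0.10, edgeR adjusted p = 2.0e-16). No test of the difference between the lists was made.

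**Figure D5:**
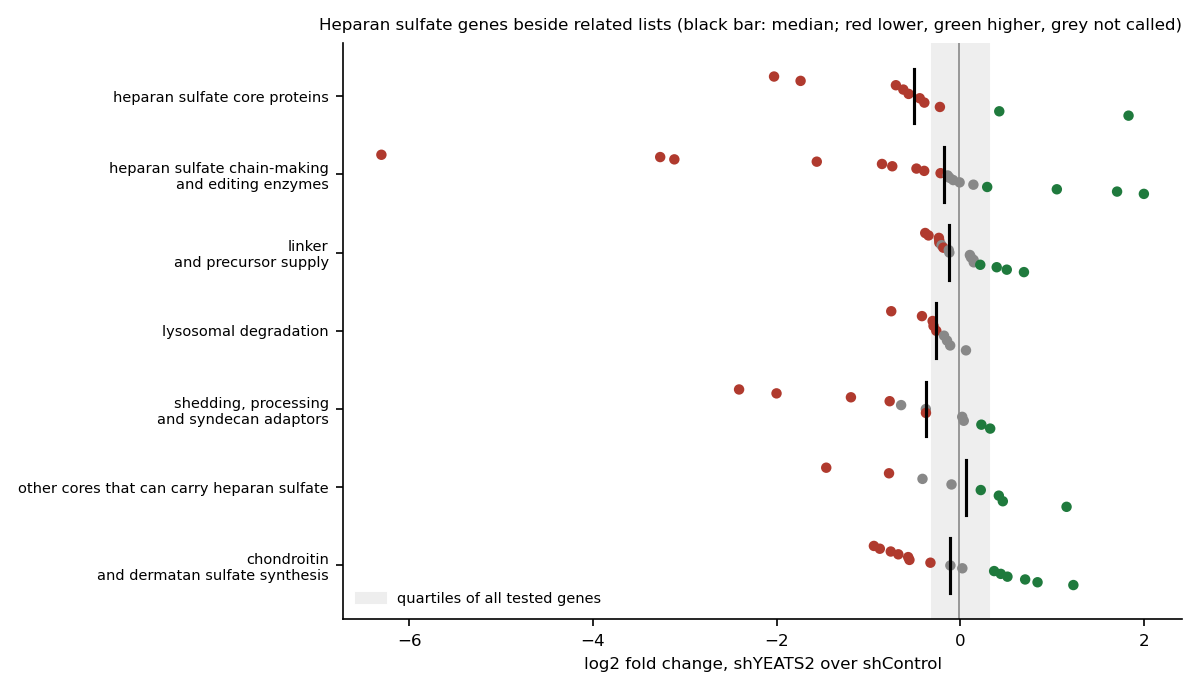
log2 fold change of each tested gene in the heparan sulfate groups and in the related lists, with the median of each list as a black bar and the quartiles of all tested genes as a grey band. The core proteins have a median of −0.50, and the other lists have medians between −0.37 and 0.07.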

How the data were processed

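RNA-seq of 4 BICR10 libraries was analysed. The authors used STAR on GRCh38 and HTSeq, and deposited raw counts of read pairs per gene, without normalization. The version of STAR, the annotation and whether counting used strand are not given in the sources used here. Reads assigned to no single gene were left out of the totals. Of 60623 gene identifiers, 60295 matched GENCODE 44, which gave positions and exon lengths.

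Genes kept by filterByExpr were scaled by TMM and tested with edgeR 4.0.16 (quasi-likelihood, robust) in R 4.3.3, with no covariate, and calls were made where p, adjusted by Benjamini-Hochberg over all 17058 genes, was under 0.05. The test was also run on simulated counts with the same dispersion for all genes and few changed genes. These data differ in both, so that run does not vouch for the calls. An exact permutation test of 2 libraries against 2 (two-sided) cannot give a p below 0.333. Replicates differed by more than counting noise (chi-square per degree of freedom 5.95 and 5.39). A floor is 3 counts, 0.0634 to 0.265 CPM in single libraries and 0.0360 and 0.0807 CPM over shControl and shYEATS2. Floors and intervals (95%, exact binomial on summed counts) cover counting error only.

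Every member is named. Values in every library were required of called members changed at least 2-fold and averaging 1 CPM or more, and of the most abundant member of each class, and other genes of the lists are named where they changed as much or most in their list. ADAM17, SDCBP and the single cell type markers were chosen after their values were seen. The members and lists were chosen with earlier results of these data known. Alternatives were other scalings, filters and thresholds, DESeq2 1.42.0, limma-voom (limma 3.58.1), thinned counts, a replicate block and each library left out.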

Additional observations from a re-analysis of the deposited data

How the results depend on the processing

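All alternatives kept YEATS2 lower. Library totals in place of TMM shifted the median of all genes from −0.01 to 0.13 on the log2 scale and the calls over all genes from 4019 lower and 3858 higher to 2571 and 5441. With it the member median was −0.26, 11 pathway genes were lower, XYLT2 (0.019), HS2ST1 (0.058) and HS3ST3A1 (0.13) changed sign without a call, and HPSE was called higher (0.28, adjusted p = 0.0085). With no filter the member median was −0.51. A 2-fold threshold left 6 members, 4 pathway and 0 chondroitin sulfate genes lower, and 1 pathway and 1 chondroitin sulfate gene higher. HS3ST3A1 also changed sign with upper quartiles (0.0070), limma-voom (0.0042) and thinned counts (0.045), and ranged from −0.13 to 0.11 with 1 library left out (0.11 without shControl replicate 2), HPSE changed sign with thinned counts (−0.0068) and HS2ST1 without shYEATS2 replicate 1 (0.028), none of them called. Leaving out 1 library gave 16 to 19 members lower and 5 to 6 higher, 14 to 22 pathway genes lower and 6 to 10 higher, the 6 being without shControl replicate 1. XYLT2 (−0.29, adjusted p = 0.0019) was called without shYEATS2 replicate 1, and HS2ST1 (−0.18, 0.0066) and EXTL2 (−0.23, 0.0082) without shYEATS2 replicate 2. The causes were not tested.

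Same-numbered libraries did not deviate together (correlation of the differences −0.018). With a replicate block, 17 members were lower and 6 higher, 8013 genes were called in place of 7877, and HS3ST3A1 was at 0.0088, with no call of a member changed. DESeq2 called 2949 genes lower and 2820 higher, and 16 and 5 members.

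Depth was least in shYEATS2 replicate 2, where 3 counts are 0.265 CPM, so differences of members near or under that level rest on few counts.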
